A study of Mus musculus with 42 samples.

Results

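HOXC9 and HOXC10 are posterior HOX factors, and their genomic binding was compared by ChIP-seq in differentiating mouse motor neurons at day 3. Each list of binding events was restricted to chromosomes 1 to 19 and X, which left 74067 HOXC9 events and 26859 HOXC10 events. Events were ranked by the estimated number of ChIP reads assigned to them (signal), and the 10000 highest of each list were kept. A site was termed shared when the full list of the other factor held an event within 100 bp, and alone when it did not. Of the top HOXC9 sites 6606 were shared and 3394 were HOXC9 alone. Of the top HOXC10 sites 9496 were shared and 504 were HOXC10 alone. Merging the top lists with each other at 100 bp gave 15671 sites, out of 100926 events in the 2 lists. Events of the same list were not merged, so neighbouring events of one factor count as separate sites.

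HOX genes lie in 4 clusters, and their order along each cluster matches the order of their expression along the body axis. In the spinal cord HOXC9 marks thoracic and HOXC10 lumbar levels, and the factors specify which motor columns form there. HOX proteins bind DNA through a homeodomain, either alone or with the cofactors PBX and MEIS, and posterior members accept a TTTAT core where central members prefer TAAT.

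The samples were embryoid bodies (EBs) grown from Ainv15 mouse embryonic stem cell lines and patterned with retinoic acid (RA) and the smoothened agonist SAG from day 0. Each line carried a single tagged Hox transgene under a doxycycline (Dox) promoter at the HPRT locus, and Dox was given at day 2 for 24 h before collection at day 3. HOXC9 was measured in 2 libraries of iFlag.Hoxc9 cells with the antibody Sigma F1804. HOXC10 was measured in 3 libraries, of which 2 came from iFlag.Hoxc10 cells with the same antibody and 1 from an iHoxc10.V5 line with the antibody Abcam ab15828. The 5 libraries belong to a series of 42 samples. Other lists of the series were used for comparison. Those of HOXA9, HOXD9 and HOXC13 at day 3 each pooled a library of an iFlag line with a library of an HA-tagged line. Those of HOXC6 and HOXC8 at day 3, HOXC9 and HOXC10 at day 4 and HOXC9 in EBs without RA and SAG came from iFlag lines. PBX was measured in iFlag.Hoxc9 and iFlag.Hoxc10 cells, and MEIS in V5-tagged lines. The induced factor was supplied to cells in culture whatever their own axial level, which limits the lines as a model of the cord. Binding was read from whole EBs, so fewer bound cells and weaker binding per cell cannot be told apart. No expression values were analysed here, so the identity of the cells rests on the labels.

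Pooled depth was similar for the factors but enrichment was not. The HOXC9 libraries held 26760345 and 25633253 aligned reads, of which 17.4% and 39.8% were assigned to signal. The HOXC10 libraries held 5036342, 18158702 and 21837512 aligned reads, of which 1.7%, 4.1% and 16.1% were assigned to signal. The library of the iHoxc10.V5 line was the shallowest and the least enriched of the 5. All were set against the same control library of 20590685 reads. The libraries of a factor were pooled by the authors before events were called, so every value below comes from 1 list per factor and no spread between replicates could be computed. The intervals given are 95% Wilson intervals, Newcombe intervals for differences, or binomial order-statistic intervals for medians. They treat sites as independent and cover counting error only.

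The strongest sites of each class are shown first, since they span the range of behaviour described below. Each sequence is the forward strand of build GRCm38 (the assembly named mm10) over 61 bases centred on the event, with capitals marking TTTAT or its reverse complement. The 3 HOXC9-alone sites of highest signal had signals of 4807, 4750 and 4669 and ranked 6, 7 and 10 among HOXC9 events. The first lay in an intron of *Tbcel*. The second lay between genes, with *Rgs4*, which encodes a regulator of G-protein signalling, as the nearest protein-coding start at 32.7 kb. The third lay between genes, 316 kb upstream of *Zfp703*. The nearest HOXC10 events lay 16.4, 22.3 and 4.33 kb away. All 3 sites also held events of HOXC9 at day 4 and in unpatterned EBs. Each held events of 6 of the 13 other lists used here, and HOXA9 and HOXC8 at day 3 were found at all 3.
HOXC9 alone, chr9:42484097-42484157: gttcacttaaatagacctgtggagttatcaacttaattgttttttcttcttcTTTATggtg
HOXC9 alone, chr1:169714925-169714985: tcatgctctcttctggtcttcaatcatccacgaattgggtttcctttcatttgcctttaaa
HOXC9 alone, chr8:26661132-26661192: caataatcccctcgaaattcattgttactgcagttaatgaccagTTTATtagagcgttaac

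The 2 shared sites with the best lower rank were bound at the same base by both factors and held events of 11 of the 13 other lists used here. HOXC9 signal was 4242 and 4238 and HOXC10 signal 1330 and 2064. The first lay between genes 36.9 kb upstream of *Pter*. The second, the strongest HOXC10 event of all, lay in an intron of *Hoxc4* within the HoxC cluster.
Shared, chr2:12887142-12887202: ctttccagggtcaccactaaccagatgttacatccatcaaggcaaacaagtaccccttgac
Shared, chr15:103035336-103035396: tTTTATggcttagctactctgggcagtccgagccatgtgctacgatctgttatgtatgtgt

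The HOXC10-alone sites were weaker in rank. The strongest had a signal of 624 and rank 193 among HOXC10 events, the second a signal of 448 and rank 534, and the third a signal of 416 and rank 654. The second lay in an intron of *Ctif*, and its nearest HOXC9 event was 8.95 kb away. The first and the third lay between genes, with *Itga1* and *Ednrb* as the nearest protein-coding genes at 552 and 294 kb, and had a HOXC9 event 123 bp and 128 bp away, past the 100 bp that define a shared site. None of the 3 held TTTAT within 50 bp. Sequences are given for the first and the third.
HOXC10 alone, chr13:115653641-115653701: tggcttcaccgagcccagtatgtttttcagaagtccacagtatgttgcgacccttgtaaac
HOXC10 alone, chr14:104138091-104138151: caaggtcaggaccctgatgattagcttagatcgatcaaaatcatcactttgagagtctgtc

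Overlap was uneven between the factors when full lists were searched. Among top HOXC9 sites 66.1% had a HOXC10 event inside 100 bp (95% interval 65.1 to 67.0%). Among top HOXC10 sites 94.96% had a HOXC9 event that close (94.5 to 95.4%). The lists searched differ in length, and the gap depended on it. With both lists cut to the length of the shorter list the shares were 66.1% and 75.5%, so the size of the gap depended on how far down the partner list was read. With partners limited to the top 10000 of each list the shares were 46.2% and 43.3%. Both of these count the same pairs of events, so they can differ only where several events of a list share a partner. Their order therefore does not show which factor had more of its sites shared. Partners of the top HOXC9 sites had a median rank of 5124 in the HOXC10 list, and partners of the top HOXC10 sites a median rank of 11608 in the HOXC9 list.

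Sharing fell with rank in both lists. Among HOXC9 sites it went from 84.5% in the first 1000 ranks to 55.4% in the last 1000, and among HOXC10 sites from 99.3% to 90.1%. HOXC9-alone sites were accordingly weaker than shared ones, with a median signal of 457 against 552, and HOXC10-alone sites had a median of 131 against 165. Control reads at the sites differed little, with medians of 3.9 and 4.2 for HOXC9 alone and shared and of 5.3 and 5.7 for HOXC10 alone and shared. The lowest signal kept was 316 for HOXC9 and 104.9 for HOXC10, and the first event left out had the same rounded signal in each list.

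**Figure D1:**
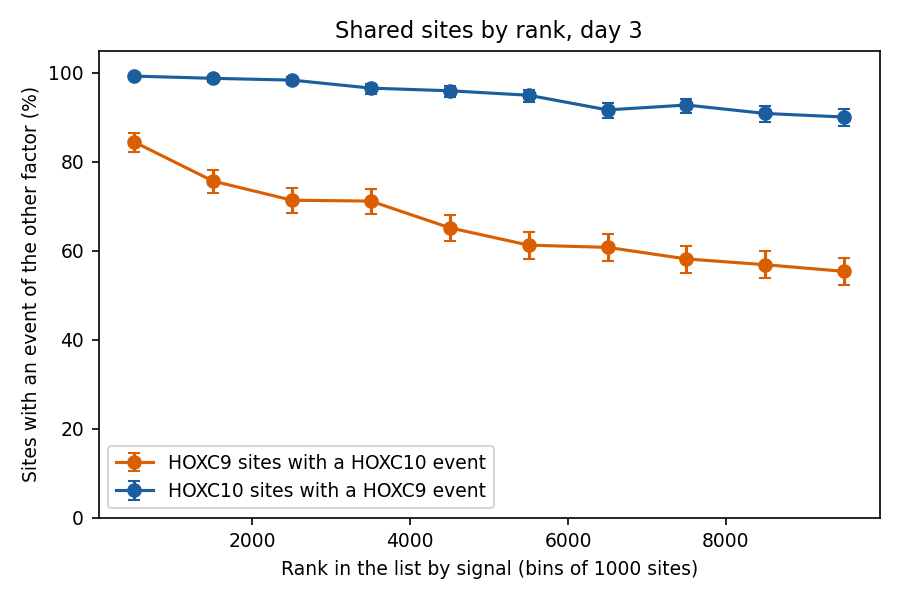
The share of sites with an event of the other factor within 100 bp (vertical axis, percent) is plotted against rank by signal (horizontal axis, bins of 1000 sites), with 95% Wilson intervals as bars. HOXC9 sites (orange) go from 84.5% to 55.4% and HOXC10 sites (blue) from 99.3% to 90.1%.

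The distance to the partner differed between the kinds of lone site. HOXC9-alone sites were mostly isolated, with 71.2% (69.6 to 72.7%) more than 5 kb from any HOXC10 event and 16.5% with one past 100 but within 500 bp. Among HOXC10-alone sites 40.3% (36.1 to 44.6%) lay more than 5 kb from any HOXC9 event, while 36.5% had one past 100 but within 500 bp and 25.6% had one within 200 bp. At the boundary, 84 top HOXC9 sites had their partner in the last 10 bp inside the limit and 74 in the first 10 bp outside it. For HOXC10 these numbers were 40 and 35. Most shared sites coincided exactly, since 76.0% of the shared HOXC9 sites and 85.5% of the shared HOXC10 sites had a partner at the same base. The lists hold columns that compare the factors, so they come from a joint run of the event caller, which can place events of several factors on one position.

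Both factors bound mostly far from protein-coding starts. The median distance to the nearest protein-coding start was 138 kb for HOXC9-alone sites and 117 kb for shared HOXC9 sites, against 109 kb for HOXC10-alone and 101.1 kb for shared HOXC10 sites. Within 1 kb of any gene start lay 1.77% (1.38 to 2.27%) of HOXC9-alone and 2.88% (2.50 to 3.31%) of shared HOXC9 sites, a difference of -1.11 percentage points (-1.69 to -0.48). HOXC10-alone and shared HOXC10 sites had 3.17% and 4.16% of sites there. Their difference of -0.98 points had an interval of -2.27 to 0.97 that included 0, and it changed sign when lists were cut to equal length. Introns held 49.4%, 50.5%, 50.8% and 51.3% of the 4 classes in the same order. Between genes lay 48.0% (46.4 to 49.7%) of HOXC9-alone, 46.0% of shared HOXC9, 46.03% of HOXC10-alone and 44.7% (43.7 to 45.7%) of shared HOXC10 sites. Exons held 2.62% (2.14 to 3.22%), 3.57%, 3.17% and 4.00% (3.63 to 4.42%). HOXC9-alone sites and shared HOXC10 sites thus had intervals that did not overlap for both measures.

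HOXC9-alone sites were poorer in G and C. The median G+C content within 50 bp of the event was 38.6% at HOXC9-alone and 41.6% at shared HOXC9 sites, with 40.6% and 42.1% in flanks 1 kb away. At HOXC10-alone and shared HOXC10 sites the median was 42.6% in both. The event base was repeat-masked at 8.72% of HOXC9-alone and 6.10% of shared HOXC9 sites, a difference of 2.62 points (1.53 to 3.76). Reads with more than 1 best alignment were discarded by the authors, which limits what can be seen in repeats.

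The posterior motif TTTAT was more frequent at HOXC9-alone and less frequent at HOXC10-alone sites than at shared ones. Counted on either strand within 50 bp of the event, it was present at 72.2% of HOXC9-alone and 62.9% of shared HOXC9 sites, a difference of 9.33 points (7.41 to 11.2). Among HOXC10 sites the difference had the opposite sign, with 43.7% of HOXC10-alone and 55.7% of shared sites (-12.0 points, -16.4 to -7.54). Flanks 1 kb away held the motif in 30.5% to 36.2% of windows, so HOXC10-alone sites exceeded their flanks by 13.19 points and HOXC9-alone sites by 36.0 points. HOXC9-alone sites were also the richest in A and T, and the part of base composition in these shares was not tested beyond the subtraction of flanks, which left differences of 7.40 and -9.63 points.

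The excess of TTTAT at HOXC9-alone sites was not confined to the event. The middle base of the motif lay within 5 bp of the event at 24.2% of HOXC9-alone and 22.4% of shared HOXC9 sites, and the intervals of 22.8 to 25.7% and 21.5 to 23.5% overlapped. At 6 to 50 bp it was present at 65.2% of HOXC9-alone and 53.9% of shared sites. At HOXC10-alone sites the shares were 15.7% near the event and 34.7% further out, against 21.2% and 45.4% at shared HOXC10 sites. The outer zone is the wider one, so the shares of the zones cannot be compared base for base. In bins of 10 bp, HOXC9-alone and shared HOXC9 sites held 24.25 and 22.07 motifs per 100 sites at -5 to 4 bp. They held 10.22 and 7.962 at 5 to 14 bp, and 7.395 and 5.677 at -105 to -96 bp. One offset recurred in a minority of sites: in 10.5% of HOXC9-alone and 10.23% of shared HOXC9 sites the forward-strand motif was centred exactly 2 bp to the left. MultiGPS can use motifs it discovers when it places events, and its part in the central peak was not tested.

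**Figure D2:**
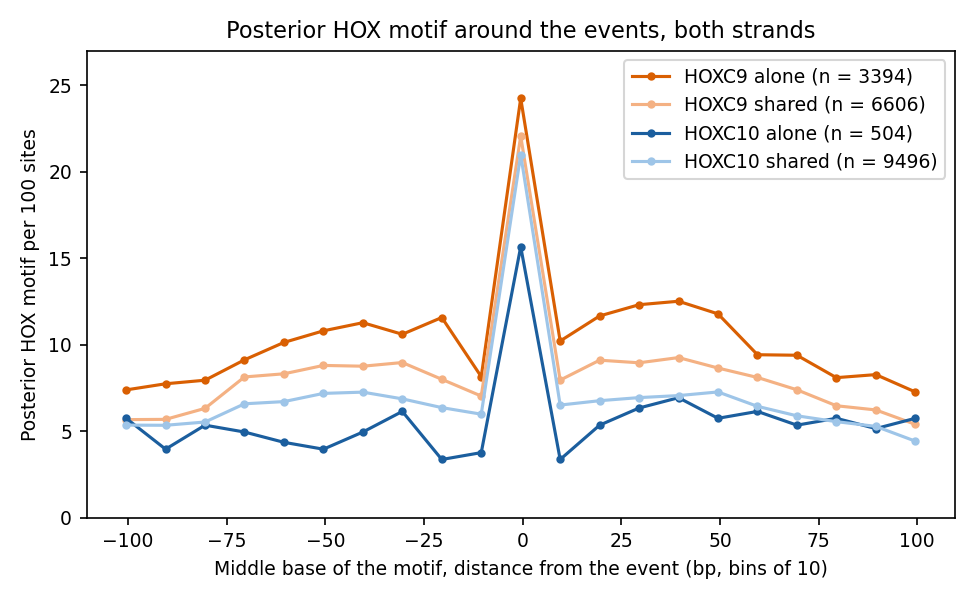
Occurrences of the posterior HOX motif on either strand per 100 sites (vertical axis) are plotted against the distance of the motif's middle base from the event (horizontal axis, bp, bins of 10) for the 4 classes of site. All classes peak at the event, from 15.7 per 100 at HOXC10-alone to 24.2 per 100 at HOXC9-alone sites, and HOXC9-alone sites stay highest on both sides.

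Motifs of other factors differed as well. TAAT was present at 78.2% of HOXC9-alone and 76.6% of shared HOXC9 sites, and the difference of 1.61 points had an interval of -0.13 to 3.32. The composite TGATTTAT, the letters of a paired PBX and HOX site, was present at 3.54% of HOXC9-alone and 6.68% of shared HOXC9 sites (-3.14 points, -3.99 to -2.25). TGACAG, the MEIS core, was present at 10.7% and 12.6% (-1.86 points, -3.15 to -0.52). Both were also less frequent at HOXC10-alone than at shared HOXC10 sites. TGATTTAT was present at 4.56% and 7.10% of these (-2.53 points, -4.13 to -0.29), and TGACAG at 8.33% and 12.7% (-4.37 points, -6.58 to -1.55). CAGCTG and CATCTG are E-box sequences, which bHLH factors such as the proneural proteins bind. CAGCTG was found at 5.36% of HOXC9-alone and 9.28% of shared HOXC9 sites, and CATCTG at 10.08% and 15.5%. HOXC10-alone sites held CAGCTG at 13.3% and shared HOXC10 sites at 11.7%, with an interval of the difference of -1.19 to 4.89 points. TTTAC, which HOXC13 prefers, was present at 30.7%, 28.7%, 18.9% and 25.5% of HOXC9-alone, shared HOXC9, HOXC10-alone and shared HOXC10 sites. At HOXC10-alone sites the flanks held it in 19.5% of windows, inside the interval of 15.7 to 22.5%. Where TTTAC or TGATTTAT overlaps TTTAT or TAAT in the same letters, a window was counted for each.

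At day 4, in separate libraries collected after 48 h of Dox, most HOXC9-alone sites again held a HOXC9 event with no HOXC10 event detected. HOXC9 events of day 4 lay at 91.1% (90.1 to 92.0%) of HOXC9-alone sites, while HOXC10 events of day 4 lay at 12.8% (11.7 to 14.0%). A HOXC9 event without a HOXC10 event was thus found at 78.6% of HOXC9-alone sites at day 4, a HOXC10 event without a HOXC9 event at 0.35%, both at 12.5% and neither at 8.54%. At shared HOXC9 sites both factors were again found at 70.6%. HOXC10-alone sites were kept less often. HOXC10 was found without HOXC9 at 31.2% of them (27.3 to 35.3%), HOXC9 without HOXC10 at 6.94%, both at 18.1% and neither at 43.8%. The day 4 lists held 44020 HOXC9 and 22024 HOXC10 events, which bears on these shares. Enrichment was again lower for HOXC10, with a signal fraction of 0.051 against 0.163 for HOXC9 at day 4. Even at shared HOXC10 sites the day 4 HOXC10 list held an event at only 75.8%. The part of enrichment in the day 4 shares was not tested.

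EBs induced for 12 h with neither RA nor SAG (unpatterned EBs) carried HOXC9 at both kinds of HOXC9 site. These events lay at 71.4% (69.8 to 72.9%) of HOXC9-alone sites and 67.2% (66.0 to 68.3%) of shared HOXC9 sites. They lay at 47.0% of shared HOXC10 sites and 14.9% (12.0 to 18.3%) of HOXC10-alone sites. With the EB list cut to its top 10000 the HOXC9-alone and shared sites differed by 1.22 points in place of 4.22, and the HOXC10 classes by -7.22 in place of -32.1 points.

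The other HOX factors of day 3 separated the classes strongly. HOXD9 events lay at 31.6% of HOXC9-alone and 91.2% of shared HOXC9 sites, the largest difference of the 5 other day 3 factors (-59.6 points, -61.3 to -57.9). HOXA9, the other paralog of HOXC9 measured here, lay at 78.0% and 98.2%. The central factors HOXC6 and HOXC8 lay at 18.2% and 47.2% of HOXC9-alone sites, against 57.7% and 82.4% of shared sites. HOXC13 was different, with events at 57.5% of HOXC9-alone and 57.1% of shared HOXC9 sites, and the interval of that difference was -1.71 to 2.38 points. No other day 3 HOX factor was found at 6.07% of HOXC9-alone sites and at 0.21% of shared ones, and all 5 were found at 4.803% and 29.4%.

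HOXC10-alone sites had a different company. HOXD9 lay at 72.8% of them, HOXA9 at 61.7%, HOXC8 at 60.9% and HOXC6 at 27.2%, each below the share at shared HOXC10 sites of 94.4%, 96.5%, 80.03% and 53.1%. HOXC13 lay at 8.93% (6.74 to 11.7%), against 41.0% of shared HOXC10 sites. HOXC13 and HOXC9 in unpatterned EBs have the longest lists used here, with 115819 and 128322 events, yet they were found at fewer HOXC10-alone sites than any other HOX list. Positions moved by 10 kb from each site held events of the lists at 0 to 1.98%.

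MEIS, the cofactor that binds with HOX and PBX proteins, separated the HOXC9 classes more than the HOXC10 classes in the list from iHoxc10.V5 cells, with differences of -33.4 points (-34.8 to -32.0) and -4.52 points (-8.77 to -0.097). In iHoxc9.V5 cells its events lay at 22.4% (20.99 to 23.8%) of HOXC9-alone and 62.0% (60.9 to 63.2%) of shared HOXC9 sites. In iHoxc10.V5 cells they lay at 4.95% of HOXC9-alone and 38.4% of shared HOXC9 sites, and in iHoxc6.V5 cells at 5.24% and 30.3%. At HOXC10-alone and shared HOXC10 sites the MEIS events of iHoxc10.V5 cells lay at 37.9% (33.8 to 42.2%) and 42.4%, and their difference ran from -11.3 points within 50 bp to -0.69 points within 200 bp, where the interval of -5.10 to 3.79 included 0. Those of iHoxc9.V5 cells lay at 33.1% (29.2 to 37.4%) and 58.7%, and those of iHoxc6.V5 cells at 21.03% and 29.6%. The lists of iHoxc10.V5 and iHoxc9.V5 cells held 12928 and 22703 events. Each MEIS list rests on 1 library. PBX events at day 4, in lists of 848 and 1164 events, lay at no more than 0.38% of any class, too few to compare.

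**Figure D3:**
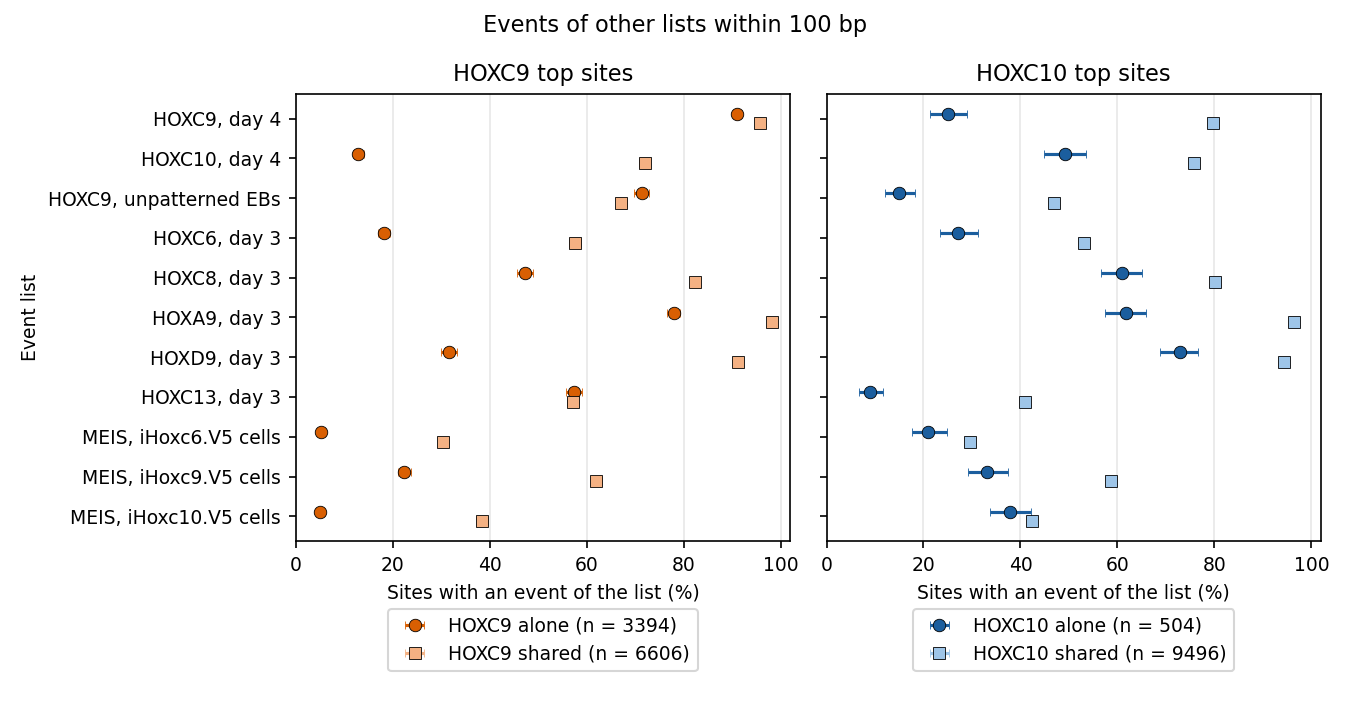
The share of sites with an event of another list within 100 bp (horizontal axis, percent, 95% Wilson intervals as bars) is shown for 11 event lists (rows). The left panel compares HOXC9-alone (circles) with shared HOXC9 sites (squares) and the right panel HOXC10-alone with shared HOXC10 sites. HOXC10 at day 4 lies at 12.8% of HOXC9-alone sites, and HOXC9 at day 4 lies at 25.0% of HOXC10-alone sites.

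Signal at shared sites was then compared as the log2 ratio of HOXC9 over HOXC10 signal, each divided by the aligned reads of its list. The median was 1.66 at the 6606 shared top HOXC9 sites (quartiles 0.96 to 2.43) and 0.39 at the 9496 shared top HOXC10 sites (-0.35 to 1.17). These levels depend on the scaling. With scaling by the sum of signal each value fell by 1.84 on the log2 scale, which gave medians of -0.18 and -1.45. With scaling by reads times signal fraction each value fell by 1.56, which gave 0.11 and -1.16. The sign of the median therefore cannot be taken as stronger binding of one factor. Differences between groups of sites are the same under each of these scalings and are used below. Selection by rank fixes part of the spread. Pairs in the top of HOXC9 only all had ratios above 1.25, and pairs in the top of HOXC10 only all had ratios below 1.5. The latter thus included pairs with a ratio above 0.

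Over all 11310 shared sites with a mutually nearest pair of events the median was 0.67 and the quartiles were -0.18 and 1.77. Sites with TTTAT within 50 bp had a median of 0.88 (0.83 to 0.93), against 0.44 (0.39 to 0.49) without it. CAGCTG had the opposite association, with 0.46 against 0.71. The 430 sites within 1 kb of a gene start had a median of 0.32 against 0.70 elsewhere. These medians pool sites taken from either top list, so a feature more frequent in one top list shifts them. TTTAT, for one, was present at 62.9% of shared HOXC9 and 55.7% of shared HOXC10 sites. The medians are therefore not evidence apart from the selection by rank, whose part in them was not tested.

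Events of other lists split the shared sites along the same scale, with the same limit from selection by rank. Sites with a HOXC9 event in unpatterned EBs had a median log2 ratio of 1.26 against 0.17 without one. HOXC13 events gave 1.22 against 0.29. HOXD9 events went the other way, with 0.64 against 1.43. MEIS events of iHoxc10.V5 cells gave 0.48 against 0.84, and MEIS events of iHoxc9.V5 cells 0.74 against 0.57. The same pairs could be compared at day 4 where both factors had an event, which was true of 7095 pairs (62.7%). When the pairs were split by day 3 ratio into 5 groups of 1419, the median day 4 ratio was 0.24 in the lowest and 2.59 in the highest group. Across these 7095 sites, which share the libraries and control of each list, Pearson's r was 0.71 and Spearman's rho 0.70.

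**Figure D4:**
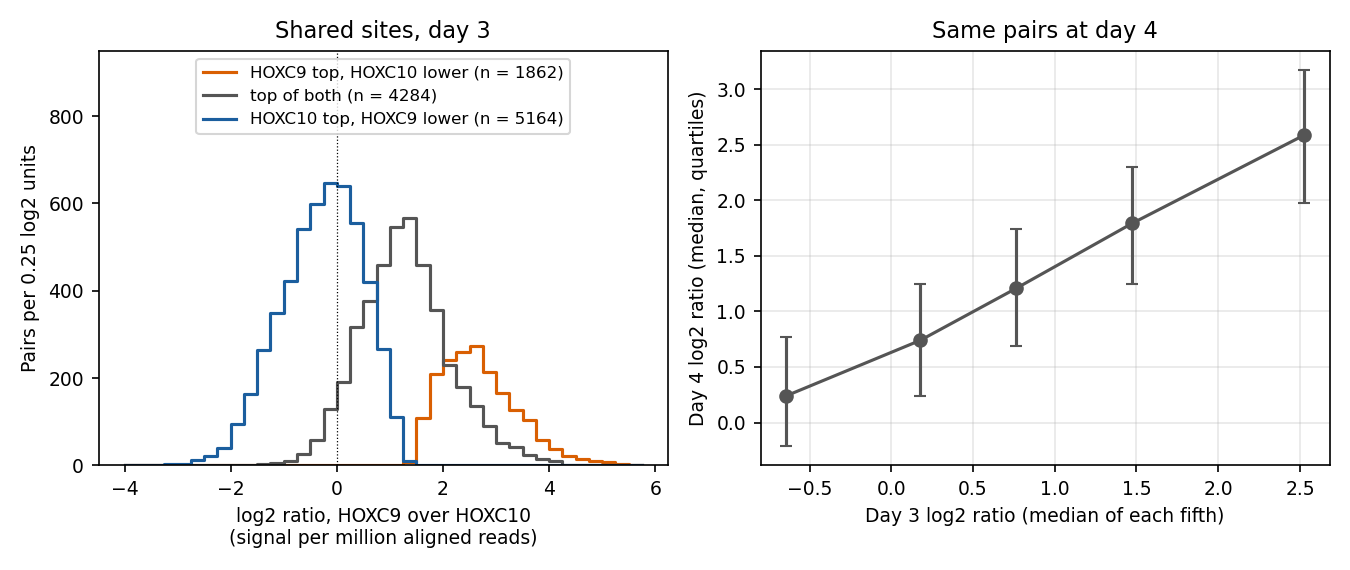
Left, numbers of shared pairs per 0.25 log2 units (vertical axis) by the log2 ratio of HOXC9 over HOXC10 signal, scaled to aligned reads, at day 3 (horizontal axis), for sites in the top 10000 of HOXC9 only, of both lists and of HOXC10 only; the 3 groups are separated in part by their selection on rank. Right, the median and quartiles of the day 4 log2 ratio (vertical axis) for 5 equal groups of pairs by day 3 ratio (horizontal axis), rising from 0.24 to 2.59.

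The extreme shared sites show the widest ratios between paired events. The lowest signal listed was 44.0 for HOXC10 and 40.0 for HOXC9, and some of the weaker partners lay near it. The highest log2 ratios were 5.63, 5.47 and 5.41. At the first, 749 kb from *Nedd1*, HOXC9 signal was 2707 and HOXC10 signal 47.0. At the second, between genes with *Cdca2* nearest, they were 3136 and 60.8, with the HOXC10 event 25 bp away. At the third, in an intron of *Snrnp27*, they were 4346 and 87.7, and the site ranked 15 for HOXC9 and 12943 for HOXC10. None of these 3 sites held TTTAT within 50 bp, so the association above did not extend to them.
Highest ratio, chr10:91973545-91973605: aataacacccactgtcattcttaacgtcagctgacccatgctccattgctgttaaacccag
Highest ratio, chr14:67580051-67580111: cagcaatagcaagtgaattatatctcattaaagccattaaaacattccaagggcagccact
Highest ratio, chr6:86678613-86678673: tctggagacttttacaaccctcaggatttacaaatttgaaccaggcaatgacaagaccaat

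At the other end, a site 294 kb from *Adam34* had a log2 ratio of -3.12, with a HOXC9 signal of 125.0 and a HOXC10 signal of 936, rank 46 of the HOXC10 list. Its window has a G+C content of 28.7% and repeats the same run of letters along its length. A site in an intron of the annotated gene *AC106834.1*, 105.2 kb upstream of *Zfand5*, had a ratio of -3.19, with signals of 42.1 and 329 and the HOXC9 event 54 bp away. Both held TAAT and lacked TTTAT.
Lowest ratio, chr8:44004300-44004360: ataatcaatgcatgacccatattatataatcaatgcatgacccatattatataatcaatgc
Lowest ratio, chr19:21167029-21167089: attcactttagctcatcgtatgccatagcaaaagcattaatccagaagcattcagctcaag

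The lowest ratio of all was -3.57, at a site in an intron of *Dcc*, which encodes a netrin receptor. There HOXC10 signal was 570 and HOXC9 signal 55.7, with the HOXC9 event 62 bp away.

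Genes were assigned by the nearest protein-coding start over the 15671 merged sites, of which 21.7% were HOXC9 alone, 75.1% shared and 3.22% HOXC10 alone. Among 21728 protein-coding genes 8.66% had at least 1 HOXC9-alone site, 19% at least 1 shared site and 1.9% at least 1 HOXC10-alone site. A gene with distant neighbours can collect more sites, so the length of genome nearest its start (territory) is given beside counts. Neighbouring events of one factor, some less than 100 bp apart, add to these counts separately. The median territory was 47.2 kb over all genes, with 5.95 sites per Mb over the genome.

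The 8 genes with the most HOXC9-alone sites all had territories far above the median. *Olfm4* had the most, with 14 HOXC9-alone and 14 shared sites over a territory of 2336 kb. *Flrt2*, which encodes an adhesion protein and ligand of Unc5 receptors, had 12 and 15. *Robo1* and *Robo2*, receptors for the Slit repellents, each had 12 HOXC9-alone sites beside 24 and 42 shared ones. *Got2*, a mitochondrial aminotransferase gene, had 12 and 19. *Epha7*, an ephrin receptor gene, had 11 and 14, the protocadherin gene *Pcdh20* 11 and 13, and the teneurin gene *Tenm3* 11 and 13. Territories of these 8 genes ran from 1639 to 3237 kb. *Robo2* had 5 HOXC10-alone sites, *Got2* 2 and *Pcdh20* 1, and the other 5 genes had none.

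By number of shared sites *Zfp608*, a zinc finger gene, came first and *Robo2* next with its 42. *Zfp608* had 65 shared, 9 HOXC9-alone and 5 HOXC10-alone sites over 1269 kb, or 62.2 sites per Mb. *Meis1*, a HOX cofactor gene, had 33 shared sites, *Nr2f1*, an orphan nuclear receptor gene, 32, and *Dach1*, a transcriptional repressor gene, 31. *Galnt17*, *Arrdc3* and *Auts2* had 30, 29 and 28. HOXC10-alone sites were thinly spread, with 5 each at *Irx3*, *Robo2* and *Zfp608* and 4 each at *Isl1* and *Pank3*. *Irx3* encodes a homeodomain factor of neural progenitors and *Isl1* a LIM homeodomain factor of motor neurons. The remaining 3 of the first 8 genes, *A230072I06Rik*, *Efna5* and *Gm10295*, had 3 each.

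**Figure D5:**
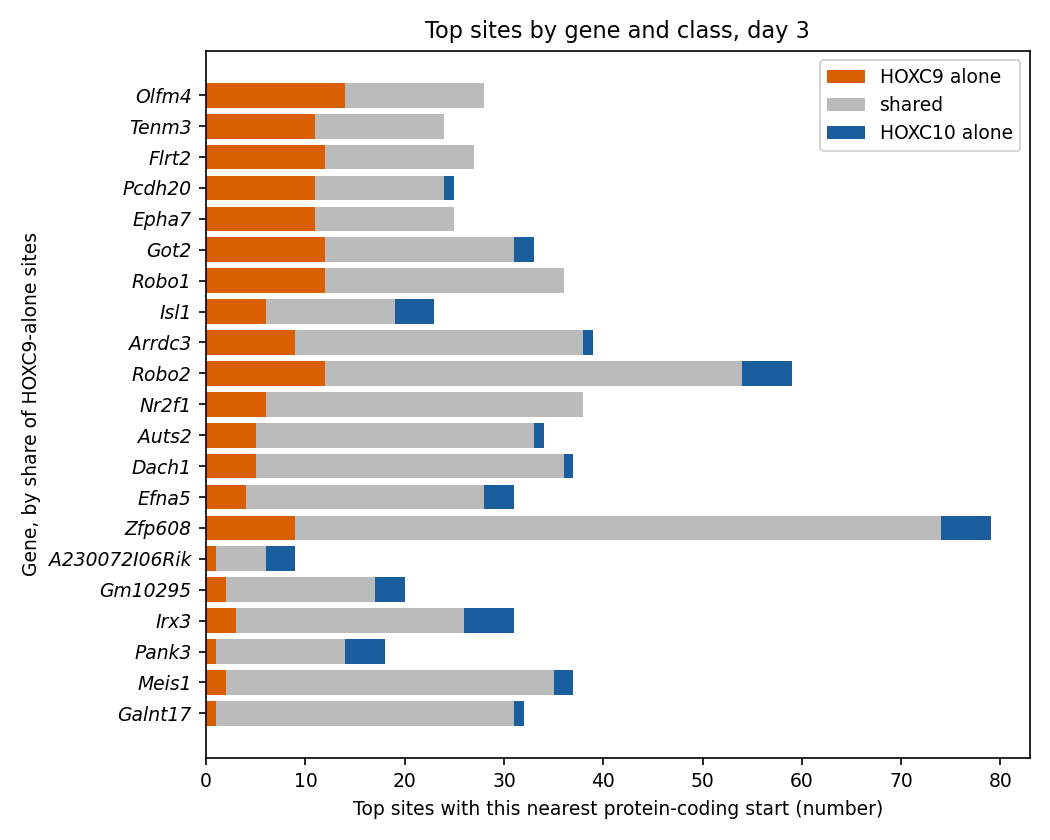
Numbers of top sites with a given nearest protein-coding start (horizontal axis) are stacked as HOXC9 alone (orange), shared (grey) and HOXC10 alone (blue) for the 21 genes with the most sites of each class (vertical axis), ordered by the share of HOXC9-alone sites. *Olfm4* is at 14 of 28 HOXC9-alone sites and *Galnt17* at 1 of 32, and *Zfp608* has the longest bar with 79 sites.

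Among 20 cell adhesion genes (cadherins, protocadherins, teneurins and latrophilins) 90 of 270 sites were HOXC9 alone (33.3%, against 21.7% of all merged sites), and 19 genes had at least 1. Of all protein-coding genes 8.66% had at least 1, with a median territory of 47.2 kb. Examples are *Pcdh17* with 8 HOXC9-alone and 4 shared sites, *Tenm2* with 10 and 12, and *Adgrl3* with 9 and 20. *Tenm4* had 17 shared and no HOXC9-alone sites. The median territory of the list was 2355 kb and its site density 5.55 per Mb, close to that of the genome. Among 33 axon guidance genes 98 of 392 sites were HOXC9 alone (25.0%), near the 21.7% over all merged sites, and 22 genes had at least 1. Their median territory was 505 kb and their site density 14.7 per Mb. *Epha4* had 7 HOXC9-alone and 23 shared sites, *Nrp1* 5 and 12, and *Dcc* 5 and 18.

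Over 30 genes of motor neuron identity 226 of 267 sites were shared (84.6%, against 75.1% of all merged sites), 27 were HOXC9 alone (10.11%) and 14 HOXC10 alone (5.24%), and 28 genes had a shared site. Of all protein-coding genes 19% had a shared site, and the median territory was 235.5 kb for this list against 47.2 kb. The density was 24.9 sites per Mb. *Foxp1*, the determinant of limb-level motor neurons, had 23 shared, 2 HOXC9-alone and 1 HOXC10-alone site. *Nr2f2* had 27, 3 and 3, *Nkx6-1* 25, 2 and 1, and *Ebf3* 17 shared sites alone. *Isl1* was more mixed, with 13 shared, 6 HOXC9-alone and 4 HOXC10-alone sites, all at least 96.1 kb from its start. *Bhlhe22* and *Chat* had no site. The median log2 ratio over the 218 pairs of the list was 0.29, below the 0.67 of all pairs, with the limit from selection by rank given above.

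*Mnx1*, which encodes the homeodomain factor HB9 of motor neurons, carried a compact group of events with negative log2 ratios. Its 5 shared sites lay upstream, at -6.80 to -8.73 kb from its start. HOXC9 signal there was 104.9, 147.5, 102.2, 213 and 84.8, and HOXC10 signal 285, 169.9, 343, 298 and 231. All 5 were in the top of HOXC10 only, since each HOXC9 signal lay under the lowest kept, 316. The log2 ratios were -1.66, -0.42, -1.97, -0.70 and -1.66, with a median of -1.66, lower than that of the list. Pairs in the top of HOXC10 only are selected toward low ratios. The gap from the list is therefore not evidence of stronger HOXC10 binding. A HOXC10-alone site with a signal of 116.8 lay at -9.28 kb, and no HOXC9-alone site was present. Events so close together share reads that the caller divides among them. At *Zfp42*, a marker gene of pluripotent cells that is repressed on differentiation, 4 of 5 sites were HOXC9 alone, with HOXC9 signals of 604, 717, 586 and 337. All 4 held a HOXC9 event at day 4, and the site with a signal of 604 also held a HOXC10 event at day 4. Both genes were singled out within their lists after their values were seen.

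Of 23 genes for ventral progenitors and hedgehog signalling 18 had a shared site, 8 a HOXC9-alone site and 5 a HOXC10-alone site. Over all protein-coding genes these shares were 19%, 8.66% and 1.9%. The median territory was 252.6 kb for this list and 47.2 kb for all genes, and larger territories can collect more sites. *Olig2*, the determinant of motor neuron progenitors, had 7 shared sites and no lone one, and *Irx3* had 23 shared, 3 HOXC9-alone and 5 HOXC10-alone sites. Of 13 HOX cofactor genes, with a median territory of 259.4 kb, 10 had a shared site and 8 a HOXC9-alone site. Of their 147 sites 18 were HOXC9 alone (12.2%, against 21.7% of all merged sites). *Meis2* had 20 shared and 6 HOXC9-alone sites, *Tshz1* 20 and 1, and *Pbx3* 17 and 3. Of 13 retinoic acid pathway genes, with a median territory of 73.7 kb, 7 had a shared site and 3 a HOXC9-alone site. *Rarb*, a retinoic acid receptor gene, led with 11 shared sites. The caudal axis list (10 genes) had 4 sites, of which the one at *Cdx2* was HOXC9 alone, and the pluripotency list (10 genes) had 14, of which 6 were HOXC9 alone.

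The HoxA to HoxD clusters were bound by both factors. Over 39 genes 59 of 66 sites were shared (89.4%, against 75.1% of all merged sites), 3 were HOXC9 alone and 4 HOXC10 alone. By cluster there were 22 shared sites of 24 in HoxA, 19 of 21 in HoxB, 14 of 17 in HoxC and 4 of 4 in HoxD. The median log2 ratio of the shared sites was 0.00 in HoxA and 0.56, 0.50 and 0.42 in HoxB, HoxC and HoxD. The strongest HOXC9 event in the clusters had a signal of 4238 and lay in *Hoxc4*, the site printed above. Counted within 50 kb of a gene body in place of the nearest start, 36 of the 39 genes had a shared site. Of all protein-coding genes 25.1% did. Neighbouring genes count the same sites in this way.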

How the data were processed

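ChIP-seq reads were aligned by the authors to mm10 with Bowtie 1.0.1, keeping reads with a single best alignment, and events were called by MultiGPS in each condition over pooled libraries against a control. The deposited lists give, for each event, the authors' estimated count of ChIP reads (signal) and of control reads, and a score that is the log2 q-value against the control. Submitters' processing notes also name Picard 2.8.2 and edgeR 3.22.5. Some lists also hold the authors' comparisons between conditions (fold changes and q-values), which were not used.

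Signal was ranked within each list and, for ratios only, scaled to aligned reads in the list header. Coordinates were compared with GRCm38: of 638643 events in the lists used, 0 lay past a chromosome end. Gene starts are those of GENCODE M21. A promoter is within 1 kb of a start, and motifs were searched within 50 bp on both strands. Wilson and Newcombe intervals and the order-statistic intervals of medians (95%) cover counting error only. With 1 pooled list per factor no replicate test could be made. Genes named are those of 9 lists, the 8 with most sites per class, and the 3 highest sites of each set, of which 1 shared site is not reported here. Members and lists were chosen with earlier results of these data known. Functions were tested on simulated data. Analyses used Python 3.11.15, numpy 2.4.6, pandas 2.3.3, scipy 1.17.1 and matplotlib 3.10.9.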

Additional observations from a re-analysis of the deposited data

How the results depend on the processing

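No paired analysis was possible because the event lists pool their libraries. For the same reason fits without 1 library were not run, and the weight of the weakly enriched iHoxc10.V5 library was not tested. Of 123 alternative values 69 stayed within the counting interval of the reported value, 47 moved outside it and 7 changed sign. Enrichment was lower in the HOXC10 libraries, and a site without a HOXC10 event is one where none was detected. The part of depth or enrichment in the shares was not tested.

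The shares of top HOXC9 and HOXC10 sites with a partner were 73.6% and 97.8% in the top 5000, 56.3% and 87.2% in the top 20000, 60.0% and 90.4% at 50 bp, 70.2% and 96.2% at 200 bp, 46.2% and 43.3% with partners in the top 10000, and 50.3% and 87.4% for events at a q-value under 1e-10. The HOXC10 share was 94.4% when ranked by q-value, 75.5% with lists of equal length and 93.9% without the top 1% by control reads, while the HOXC9 share stayed within its interval in these. The median log2 ratio at top HOXC9 sites was 1.92 in the top 5000, 1.30 in the top 20000, 0.11 when scaled by reads times signal fraction and -0.18 when scaled by the sum of signal. At top HOXC10 sites it was 0.43 when ranked by q-value, 0.44 in the top 5000, -1.16 when scaled by reads times signal fraction and -1.45 when scaled by the sum of signal. The promoter difference of HOXC9 sites was -3.23 points at 5 kb. In the top 5000 it was -0.69 points, with an interval of -1.52 to 0.31 that included 0. The promoter difference of HOXC10 sites became 1.41 points in the top 20000, 1.38 with partners in the top 10000 and 1.20 with equal lists. The TTTAT difference of HOXC9 sites was 6.54 points within 25 bp, 6.74 within 100 bp, 7.40 after subtracting flanks and 11.3 at 6 to 50 bp, an alternative added after the data were seen. That of HOXC10 sites was -5.30 points in the top 5000, with an interval of -14.7 to 3.98 that included 0. The TGATTTAT difference of HOXC10 sites became 0.19 points with partners in the top 10000. Counting sites within 50 kb of a gene gave 9.04% of genes with a HOXC9-alone site and 25.1% with a shared site. Beyond the scaling, whose construction shifts every ratio alike, the cause of these changes was not tested.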
